A study of Homo sapiens with 9 samples.

Results

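The genes described here encode the machinery that copies DNA in S phase and the enzymes that supply its nucleotides. They were chosen by name, as 42 symbols, among the 11963 genes with at least 1 probe set annotated to a single symbol. All 42 were measured, by 65 probe sets. Where a gene had several probe sets, the brightest over the 9 arrays stands for it. For the 42 genes the others are given where they differ. For genes outside the 42 only the brightest is given, and the others were not compared. RNA came from LNCaP, an established androgen-dependent human prostate cancer cell line, and was hybridised to Affymetrix arrays. The study asked how gedunin, a plant limonoid known as an inhibitor of the HSP90 chaperone system, alters the expression set by androgen. All 3 groups had been starved of hormone for 2 days, with 10% charcoal-stripped serum in the medium. The vehicle group received ethanol and DMSO for 24 h, the R1881 group 1 nM of the synthetic androgen R1881 with DMSO, and the gedunin group 20 µM gedunin together with 1 nM R1881 for 24 h. Each group had 3 arrays, titled as biological replicates, and no group received gedunin without androgen. The titles of the R1881 arrays give 6 h and the other label fields 24 h, and which holds was not settled here. If 6 h holds, both comparisons with the R1881 label differ in time as well as treatment, and these cannot be told apart. As a single cell line, the model holds no other cell type of the prostate.

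Before S phase, the origin recognition complex with CDC6 and CDT1 loads the MCM2-7 helicase onto origins, and kinases then recruit CDC45 and the GINS complex to activate it. The clamp loader RFC sets the sliding clamp PCNA on DNA, and polymerases alpha, delta and epsilon make the new strands. RPA coats single-stranded DNA, and FEN1 and LIG1 process and join Okazaki fragments. Ribonucleotide reductase and thymidylate synthase make the deoxynucleotides used, and many of these genes are textbook targets of E2F factors at the G1/S transition. LNCaP proliferation is known to depend on androgen.

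The vehicle and R1881 labels went against genes known to respond to androgen, and every result below is given by label. KLK3, which encodes prostate-specific antigen, averaged 11839 ± 513 (SD, n = 3) on the arrays labelled vehicle, 1341 ± 104 on those labelled R1881 and 7216 ± 384 on the gedunin arrays. FKBP5 and TMPRSS2, also induced by androgen in these cells, had log2 differences of -5.33 and -4.08 between the R1881 and the vehicle label. All 5 measured androgen-response genes fell in that direction (limma, Benjamini-Hochberg adjusted p at most 4.67e-12). HMOX1, a stress-induced gene encoding heme oxygenase, separated the gedunin arrays from the other 6, with a log2 difference of 5.67 from the R1881 label and 5.70 from the vehicle label. Should vehicle and R1881 have been exchanged, the effect of gedunin added to androgen would be read from its comparison with the vehicle label. The comparison with the R1881 label would then set gedunin plus androgen against vehicle. Genes higher under the R1881 label would be genes lower with androgen. Words such as rose, gain and fell below give the order of the labels and not an effect of androgen. Of the luminal prostate markers, 5 of 7 were measured, all with group means between 279.5 and 11840, and their summed intensity ran from 23000 to 24660 under the vehicle label, 4912 to 5522 under R1881 and 12420 to 13450 with gedunin. Their part in the results below was not tested. Of the basal, fibroblast and leukocyte markers, 12 of 15 were measured. Their highest group means were 131.3 for DST, 185.3 for COL1A1 and 70.12 for CD3D, and 7 of the 12 stayed under the lowest array median of 52.4 in all groups. The summed intensity of the basal list ran from 189.6 to 198.4 under vehicle, 190 to 199.6 under R1881 and 194.3 to 214.1 with gedunin. The fibroblast sums ran from 365.7 to 388.4, 351 to 407.5 and 371.1 to 392.5, and the leukocyte sums from 115.7 to 121.9, 115.9 to 131.3 and 116.1 to 121.2, so that all 3 lists overlapped between the groups. The array medians lay between 52.4 and 54.54, and the correlation between arrays of 1 group between 0.9961 and 0.9981.

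On the arrays labelled R1881, 23 of the 42 genes were higher than on those labelled vehicle and 2, CDC6 and RFC1, were lower. Among all 11963 genes, 30.3% were called in this comparison, 16.7% higher and 13.6% lower. The median log2 fold change was 0.32 over the 42 genes and 0.00 over all genes. The arrays of both groups did not overlap for 31 of the 42, of which 28 were above and 3 below. Such separation was common, with 2558 of all 11963 genes above and 2204 below. A change of at least 1.5-fold was reached by 6 of the called genes, and of at least 2-fold by TYMS and GINS1. Over all 11963 genes, 1012 called genes reached 1.5-fold in either direction and 397 reached 2-fold.

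In the gedunin group, 20 of the 42 genes were lower than on the R1881-labelled arrays and 0 were higher. Of all genes, 27.4% were called here, 14.0% higher and 13.4% lower. With the most variable probe set per gene in place of the brightest, 23 were lower and 1, CDC6, was higher (0.30, limma adjusted p = 0.0446). The median log2 fold change was -0.22 over the 42 and -0.01 over all genes. For 23 of the 42 the gedunin arrays all lay below the R1881-labelled arrays, and for 1 they all lay above. Of all 11963 genes, 2299 lay below and 2197 above in this way. The fall reached 1.5-fold for 10 genes and 2-fold for UNG and RRM2. Over all 11963 genes, 855 called genes reached 1.5-fold in either direction and 297 reached 2-fold.

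Against the vehicle label, the gedunin group had 8 of the 42 genes higher and 7 lower, where 26.9% of all genes were called, 15.0% higher and 11.9% lower. The median was 0.04 over the 42 and -0.01 over all genes. The higher genes were GINS1, RFC4, RPA1, RPA2, RRM1, TYMS, DUT and CHAF1A. The lower genes were MCM5, MCM7, CDC7, CCNE1, FEN1, RRM2 and UNG. Of these 15, 2 reached 1.5-fold, RRM2 and UNG, and 0 reached 2-fold. Over all 11963 genes, 840 called genes reached 1.5-fold in either direction and 264 reached 2-fold, so 2 of 42 is not above the background. The 3 comparisons share arrays, since each group enters 2 of them. A gene is called here when its adjusted p from limma lies under 0.05, with the Benjamini-Hochberg adjustment made over all 11963 genes. The arrays measure RNA per sample at equalised intensity, so fewer cells in S phase and less transcript per cell cannot be told apart, nor can a change in total RNA be seen.

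**Figure D1:**
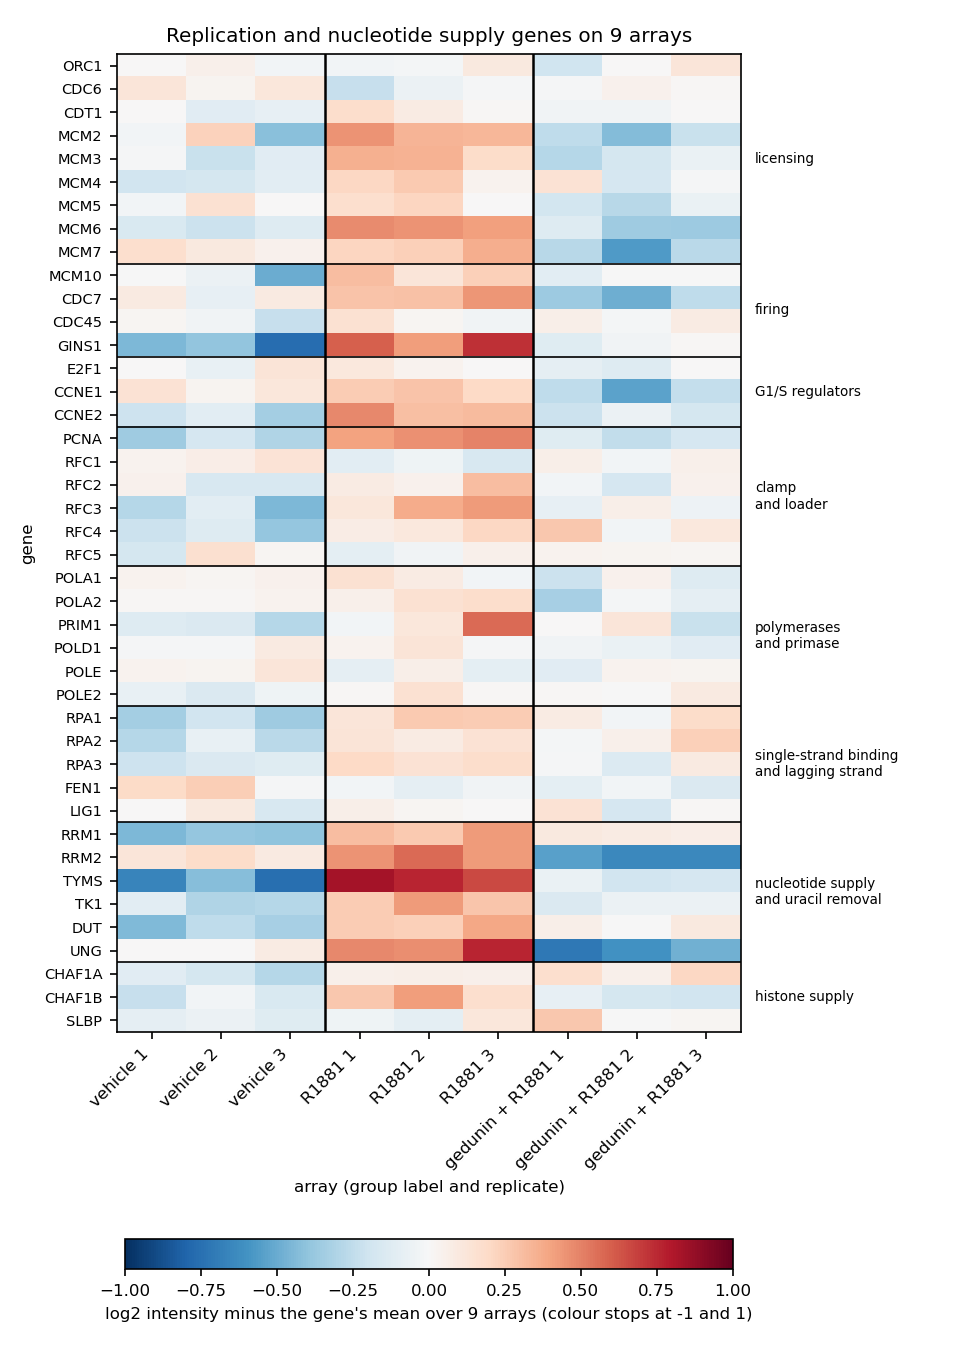
Log2 intensity of each of the 42 genes (rows, grouped by role) on each of the 9 arrays (columns, by label), shown as the difference from the gene's mean over the 9 arrays. Most rows are highest on the 3 arrays labelled R1881, where TYMS and GINS1 stand out, while UNG and RRM2 are lowest on the 3 gedunin arrays.

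The promoters of the 5 genes with the largest falls between the R1881 label and gedunin are shown to let the E2F-type motifs of this gene group be seen in place. They are RefSeq sequences of GRCh38.p14, 250 bases before the annotated start of each gene, read on the gene's strand. UNG, RRM2 and CDC7 have 2 starts each in the table, and the start with the most E2F-type matches is shown for UNG and CDC7, and the first listed for RRM2. UNG lies at chr12:109097922-109098171 on the plus strand, RRM2 at chr2:10122489-10122738 on the plus strand and TYMS at chr18:657403-657652 on the plus strand. MCM6 lies at chr2:135876444-135876693 on the minus strand and CDC7 at chr1:91500862-91501111 on the plus strand. Capitals mark every match, on either strand, to TTTCCCGC, TTTGGCGC, TTTGCCGC or TTTCGCGC.
UNG: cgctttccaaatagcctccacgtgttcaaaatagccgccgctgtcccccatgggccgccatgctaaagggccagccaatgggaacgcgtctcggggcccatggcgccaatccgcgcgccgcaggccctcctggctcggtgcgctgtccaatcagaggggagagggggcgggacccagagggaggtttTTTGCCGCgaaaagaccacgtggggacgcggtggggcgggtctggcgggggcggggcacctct
RRM2: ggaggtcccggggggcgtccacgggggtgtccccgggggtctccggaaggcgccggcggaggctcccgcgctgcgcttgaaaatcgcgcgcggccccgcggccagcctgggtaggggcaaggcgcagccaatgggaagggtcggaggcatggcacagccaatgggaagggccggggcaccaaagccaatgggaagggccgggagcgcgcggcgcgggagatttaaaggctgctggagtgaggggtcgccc
TYMS: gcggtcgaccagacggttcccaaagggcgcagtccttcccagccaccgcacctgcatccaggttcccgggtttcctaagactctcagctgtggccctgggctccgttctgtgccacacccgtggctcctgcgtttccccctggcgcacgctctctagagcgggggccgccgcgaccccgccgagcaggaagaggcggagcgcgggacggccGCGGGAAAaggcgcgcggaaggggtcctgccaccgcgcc
MCM6: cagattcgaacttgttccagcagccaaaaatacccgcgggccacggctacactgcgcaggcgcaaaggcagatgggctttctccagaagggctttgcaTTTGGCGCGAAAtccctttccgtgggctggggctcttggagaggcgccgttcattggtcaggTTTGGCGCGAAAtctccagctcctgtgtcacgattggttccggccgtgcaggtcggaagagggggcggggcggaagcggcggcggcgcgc
CDC7: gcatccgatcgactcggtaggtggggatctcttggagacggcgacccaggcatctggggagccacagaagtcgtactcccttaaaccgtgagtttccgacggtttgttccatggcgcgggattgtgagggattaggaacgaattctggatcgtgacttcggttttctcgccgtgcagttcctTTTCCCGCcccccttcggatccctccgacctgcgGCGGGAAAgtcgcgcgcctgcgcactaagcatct
UNG has 1 match, which begins 63 bases before the start, and TYMS has 1, at 39 bases. CDC7 has 2, at 68 and 34 bases. MCM6 has 4 matches at 152, 148, 90 and 86 bases, which overlap in pairs on opposite strands. RRM2 has 0 matches in this window. The windows of the other starts of UNG, CDC7 and RRM2 have 0 matches too. CCAAT is present 3 times in the printed windows of UNG and of RRM2 and 2 times in that of MCM6.

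Nucleotide supply was the group in which every gene was called in both comparisons with the R1881 label. By their brightest probe sets, all 6 genes were higher under R1881 than under vehicle, and all 6 were lower with gedunin than under R1881. Among all genes, 16.7% were higher in the first of these comparisons and 13.4% lower in the second. The group medians were 0.59 and -0.65 on the log2 scale. Against the vehicle label, 3 genes were higher with gedunin, 2 were lower, and TK1 was not called. As shares, 50% were higher and 33.3% lower, beside 15.0% and 11.9% of all genes.

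TYMS, thymidylate synthase, which makes dTMP from dUMP, measured 198, 233 and 186 on the vehicle-labelled arrays, 556, 531 and 495 under R1881, and 299, 274 and 279 with gedunin. The 3 groups did not overlap, with gedunin between the other 2. The log2 fold change was 1.36 ± 0.08 (SE) from vehicle to R1881 (limma, adjusted p = 3.16e-08) and -0.89 ± 0.08 from R1881 to gedunin (adjusted p = 2.38e-06). With gedunin TYMS remained above the vehicle label by 0.47 ± 0.08 (adjusted p = 0.000658).

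RRM2, the regulated small subunit of ribonucleotide reductase, measured 207, 216 and 203 under vehicle, 259, 282 and 256 under R1881, and 130, 122 and 121 with gedunin. Here the gedunin arrays lay below both other groups. The gain under R1881 was 0.35 ± 0.06 (limma, adjusted p = 0.000549), the difference of gedunin from R1881 was -1.09 ± 0.06 (adjusted p = 1.97e-08) and that from vehicle -0.75 ± 0.06 (adjusted p = 7.44e-07). RRM1, the large subunit of the same enzyme, took another order, with 211, 220 and 217 under vehicle, 356, 344 and 386 under R1881, and 308, 305 and 301 with gedunin. Its gedunin arrays lay between the other groups. RRM1 rose by 0.74 ± 0.06 (adjusted p = 3.53e-07) from vehicle to R1881, was -0.25 ± 0.06 from R1881 to gedunin (adjusted p = 0.00513) and 0.50 ± 0.06 above vehicle (adjusted p = 2.03e-05).

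The uracil genes also went separate ways in the gedunin group. UNG, the glycosylase that removes uracil from DNA, measured 56.5, 56.5 and 59.6 under vehicle, 78.7, 78 and 95.8 under R1881, and 34.4, 37.2 and 40.5 with gedunin. Its groups did not overlap and gedunin was lowest, with log2 differences of 0.54 ± 0.08, -1.17 ± 0.08 and -0.63 ± 0.08 in the order of the comparisons above (limma, adjusted p = 0.000235, 2.41e-07 and 7.91e-05). The gedunin means of UNG, and of CDC7 and CCNE1 below, lie under 52.4, the lowest array median, where background signal is known to compress differences. DUT, the dUTPase that keeps uracil out of DNA, measured 597, 681 and 645 under vehicle, 965, 956 and 1060 under R1881, and 844, 807 and 868 with gedunin. It rose by 0.63 under R1881 (adjusted p = 6.68e-06) and lay between the other groups with gedunin, at -0.24 from R1881 and 0.39 from vehicle. The call of DUT against R1881 (adjusted p = 0.0142) was lost without R1881 replicate 3 (adjusted p = 0.0523) or gedunin replicate 2 (0.0602). TK1, the thymidine salvage kinase, rose by 0.55 and fell by 0.41 (adjusted p = 3.44e-05 and 0.000465). Its gedunin arrays, at 125, 132 and 132, overlapped the vehicle arrays at 128, 112 and 113.

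**Figure D2:**
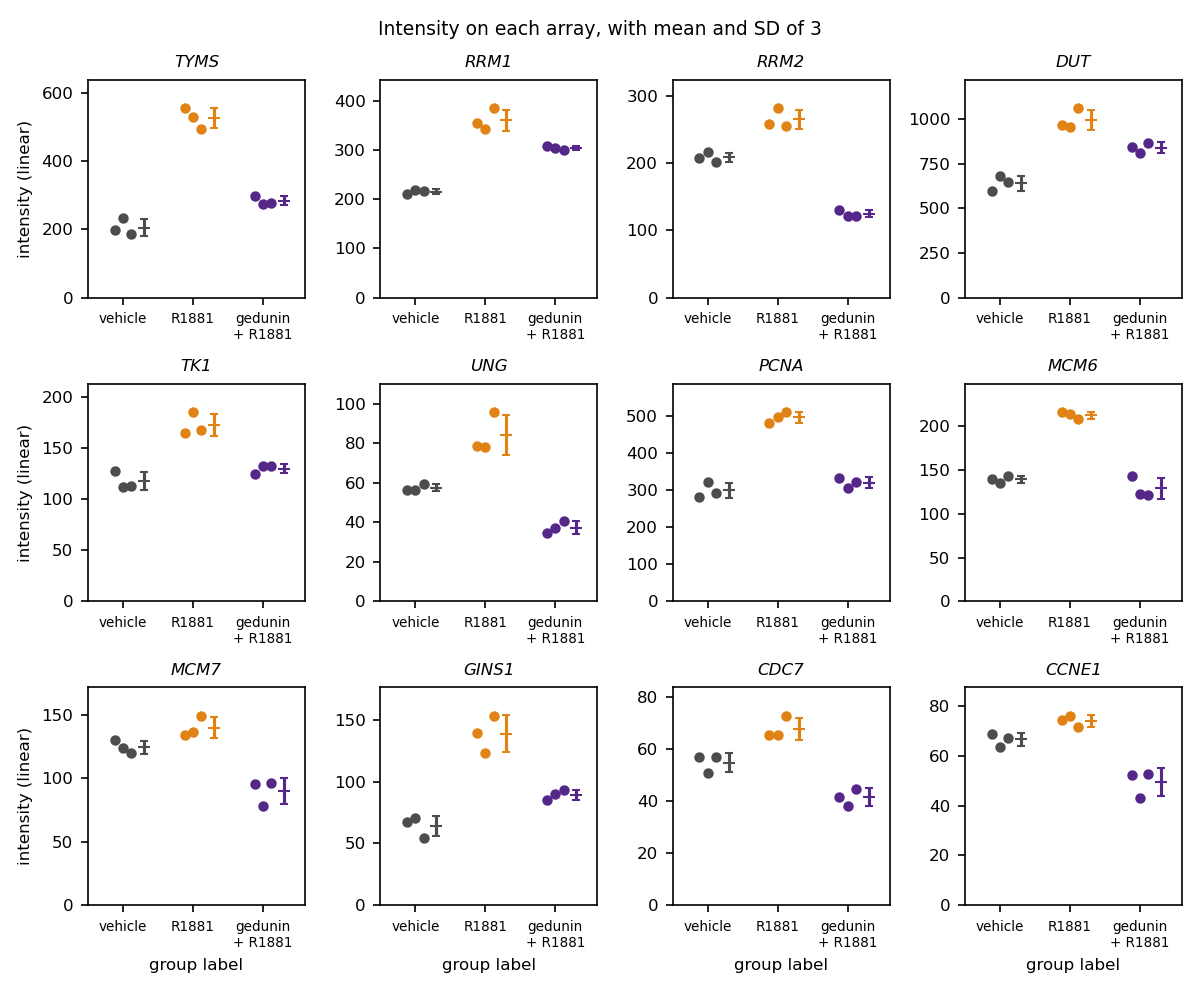
Intensity on each array (vertical axis, linear from 0) for 12 genes, by group label, with each point 1 array and, beside the points, the mean and SD of the 3 arrays. TYMS, RRM1 and GINS1 with gedunin lie between the other 2 groups, whereas RRM2, UNG and CDC7 with gedunin lie below both.

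Among the 9 licensing genes, 4 were higher and 1 lower under R1881 than under vehicle, and 5 were lower with gedunin than under R1881. As shares, 44.4% were higher and 55.6% lower in these comparisons, beside 16.7% and 13.4% of all genes. The 11.1% lower under R1881 was near the 13.6% of all genes. Apart from CDC6, all called genes were subunits of the MCM helicase. MCM6 measured 140, 135 and 143 under vehicle, 216, 214 and 208 under R1881, and 143, 122 and 122 with gedunin. Its R1881 arrays stood above all others, and the vehicle and gedunin arrays overlapped. MCM6 rose by 0.61 ± 0.07 (limma, adjusted p = 1.1e-05) and fell by 0.73 ± 0.07 with gedunin (adjusted p = 2.63e-06), and differed from vehicle by -0.12 ± 0.07 (adjusted p = 0.262). MCM2 and MCM3 were alike in order, with log2 changes of 0.44 and 0.41 under R1881 and -0.67 and -0.47 with gedunin. MCM4 rose by 0.33 (adjusted p = 0.00818) and had a difference of -0.18 with gedunin that was not called (adjusted p = 0.141). The call of MCM2 under R1881 (adjusted p = 0.0159) was lost without R1881 replicate 1 (0.0571).

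MCM7 and MCM5 were lower with gedunin than under either other label. MCM7 measured 130, 124 and 119 under vehicle, 134, 136 and 149 under R1881, and 95.5, 78.1 and 95.8 with gedunin. The gedunin arrays lay below all 6 others, at -0.64 ± 0.08 from R1881 (limma, adjusted p = 4.13e-05) and -0.47 ± 0.08 from vehicle (adjusted p = 0.000561). Its difference between R1881 and vehicle was 0.17 ± 0.08 (adjusted p = 0.148), and its second probe set was called there, at 0.24 (adjusted p = 0.0148). MCM5 fell by 0.31 with gedunin from R1881 (adjusted p = 0.00819). Its call against vehicle, at -0.22 with an adjusted p of 0.0483, was lost without any 1 of 7 arrays (adjusted p between 0.0501 and 0.186), all but R1881 replicate 3 and gedunin replicate 3.

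The loading factors had low signal. ORC1, CDC6 and CDT1 had means under 52.4, in that dim range. ORC1, the origin-binding ATPase, measured between 15.3 and 19.1 on the 9 arrays and passed no test. CDT1, the MCM loading factor, measured 27.2, 25 and 25.5 under vehicle and 30.5, 28.7 and 27.3 under R1881, a difference of 0.16 (adjusted p = 0.0659). CDC6, the ATPase that loads MCM with it, went the other way, at -0.19 under R1881 (adjusted p = 0.0425). That call was lost without any 1 of 7 arrays, all but vehicle replicate 2 and R1881 replicate 3, with adjusted p between 0.055 and 0.176. The second probe set of CDC6, also dim, was called lower too, at -0.39 (adjusted p = 0.0116 over all probe sets).

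Of the 4 genes of helicase activation, 3 rose under R1881 and 2 fell with gedunin from R1881. That is 75% and 50%, beside 16.7% and 13.4% of all genes. GINS1, a subunit of the GINS complex, measured 67.5, 70.3 and 54.6 under vehicle, 139, 124 and 153 under R1881, and 85, 90.2 and 93 with gedunin. The groups did not overlap and gedunin lay between. GINS1 rose by 1.12 ± 0.10 (limma, adjusted p = 1.25e-06), fell by 0.63 ± 0.10 with gedunin (adjusted p = 0.000255) and stayed 0.49 ± 0.10 above vehicle (adjusted p = 0.002). CDC7, the kinase that triggers MCM activation, measured 56.8, 50.7 and 56.8 under vehicle, 65.3, 65.4 and 72.8 under R1881, and 41.5, 38.1 and 44.8 with gedunin. Its gedunin arrays were below both other groups, at -0.71 ± 0.08 from R1881 (adjusted p = 8.92e-06) and -0.40 ± 0.08 from vehicle (adjusted p = 0.00119). MCM10, an initiation factor, rose by 0.41 under R1881 (adjusted p = 0.0115), with all 9 arrays between 17.5 and 30.5. CDC45, between 39.3 and 51.3, was called in 0 of the 3 comparisons.

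The 3 genes of G1/S control in the group differed. CCNE1 and CCNE2 encode cyclin E, the partner of CDK2 at S phase entry. CCNE2 rose by 0.58 ± 0.08 under R1881 (limma, adjusted p = 4.56e-05) and fell by 0.52 ± 0.08 with gedunin (adjusted p = 0.000141), with gedunin arrays at 21.5, 24 and 22.1 beside 21.7, 23.2 and 19.8 under vehicle. CCNE1 measured 69.1, 63.6 and 67.3 under vehicle, 74.4, 76.2 and 71.7 under R1881, and 52.4, 43 and 52.9 with gedunin. The gedunin arrays of CCNE1 lay below both other groups, at -0.59 from R1881 (adjusted p = 6.06e-05) and -0.44 from vehicle (adjusted p = 0.00077). Its difference of 0.15 between R1881 and vehicle was not called (adjusted p = 0.172). E2F1, the transcription factor, stayed between 43.8 and 52.3 on all arrays and was not called.

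PCNA, the sliding clamp, measured 283, 322 and 293 under vehicle, 480, 498 and 511 under R1881, and 334, 305 and 323 with gedunin. The R1881 arrays stood apart from the others, and gedunin overlapped vehicle. PCNA rose by 0.73 ± 0.06 (limma, adjusted p = 1.2e-06) and fell by 0.63 ± 0.06 with gedunin (adjusted p = 5.8e-06). The 5 subunits of the clamp loader did not share 1 course. RFC3 rose by 0.58 (adjusted p = 0.000369) and RFC4 by 0.37 (adjusted p = 0.00411) under R1881. With gedunin RFC3 was -0.33 from R1881 (adjusted p = 0.0201), a call that was lost without R1881 replicate 2 or 3 or gedunin replicate 1 or 3 (adjusted p between 0.0666 and 0.078). RFC4 differed from R1881 by -0.01 (adjusted p = 0.934) and remained 0.36 above vehicle (adjusted p = 0.00589). RFC1, the largest subunit, measured 165, 169 and 177 under vehicle and 150, 157 and 144 under R1881, and its fall of -0.18 (adjusted p = 0.0306) was not called without vehicle replicate 2 or 3 or R1881 replicate 1 or 3 (adjusted p between 0.0527 and 0.12). RFC2 was at 0.24 (adjusted p = 0.0508), and RFC5 is described with its probe sets.

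Of the 6 genes for polymerases and primase, 1 rose under R1881, 1 fell with gedunin from the R1881 label and 0 were called against vehicle. With 16.7% of all genes called higher in the first comparison and 13.4% lower in the second, 1 of 6 is near the background. PRIM1, the catalytic primase subunit, measured 85.2, 84.3 and 76.4 under vehicle and 91.4, 101 and 137 under R1881. The highest of these was R1881 replicate 3, and the rise of 0.40 ± 0.13 (limma, adjusted p = 0.0307) was lost without it (0.23, adjusted p = 0.0981) or without any vehicle replicate (adjusted p between 0.0583 and 0.109). POLA2, the regulatory subunit of polymerase alpha, fell by 0.27 with gedunin from R1881 (adjusted p = 0.0166), a call lost without R1881 replicate 2 or 3 or gedunin replicate 1 (adjusted p between 0.0502 and 0.072). The catalytic subunits POLA1, POLD1 and POLE had log2 differences between -0.17 and 0.04 in the 3 comparisons and were not called in any. For POLE, the 95% interval of the difference between R1881 and vehicle ran from -0.24 to 0.04. For its 1 probe set, this leaves out a change of the size of PCNA. The interval covers the spread between arrays and not how well the probe set reads the gene. POLE2 had a mean under 52.4 and was not called.

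The 3 subunits of RPA, which coats single-stranded DNA, all rose under R1881. Among all genes, 16.7% were called higher in this comparison. RPA1 measured 388, 430 and 384 under vehicle, 534, 587 and 585 under R1881, and 519, 482 and 556 with gedunin. Vehicle lay below the other groups, and gedunin and R1881 overlapped. RPA1 rose by 0.51 ± 0.07 (limma, adjusted p = 9.97e-05), and with gedunin it was 0.37 ± 0.07 above vehicle (adjusted p = 0.00136) and -0.13 ± 0.07 from R1881 (adjusted p = 0.216). RPA2 had the same order of calls, at 0.33 and 0.30 above vehicle (adjusted p = 0.00454 and 0.00938). RPA3 rose by 0.33 (adjusted p = 0.00118), and its call of -0.19 from R1881 to gedunin (adjusted p = 0.0388) was lost without any R1881 replicate, vehicle replicate 3, or gedunin replicate 1 or 2 (adjusted p between 0.051 and 0.165).

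Of the enzymes that join Okazaki fragments, FEN1, the flap endonuclease, measured 164, 170 and 143 under vehicle, 141, 135 and 140 under R1881, and 135, 141 and 130 with gedunin. It was the only one of the 42 genes to be called lower against vehicle in the gedunin group while lying below vehicle on all R1881-labelled arrays too. The difference from vehicle was -0.23 with gedunin (limma, adjusted p = 0.0255) and -0.19 under R1881 (adjusted p = 0.054). The gedunin call was lost without vehicle replicate 1 or 2 or gedunin replicate 1 or 3 (adjusted p between 0.0695 and 0.103). LIG1, the replicative DNA ligase, lay between 37 and 46 and was not called.

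Histone supply was split. CHAF1A and CHAF1B encode subunits of chromatin assembly factor 1, which deposits histones behind the fork. CHAF1B measured 37.2, 42.9 and 39.4 under vehicle, 52.7, 58.2 and 49.1 under R1881, and 41.2, 38.7 and 38.2 with gedunin. It rose by 0.42 and fell by 0.44 (limma, adjusted p = 0.000664 and 0.000527), back into the range of the vehicle arrays. CHAF1A rose by 0.24 under R1881 (adjusted p = 0.00886) and was 0.33 above vehicle with gedunin (adjusted p = 0.00115). Its other 2 probe sets were not called in either comparison, at 0.10 and 0.04 under R1881 and 0.00 and 0.10 with gedunin. The brightest measured 127, 122 and 113 under vehicle, 142, 143 and 142 under R1881, and 154, 142 and 158 with gedunin. SLBP, which binds the stem-loop of histone mRNAs, was not called.

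**Figure D3:**
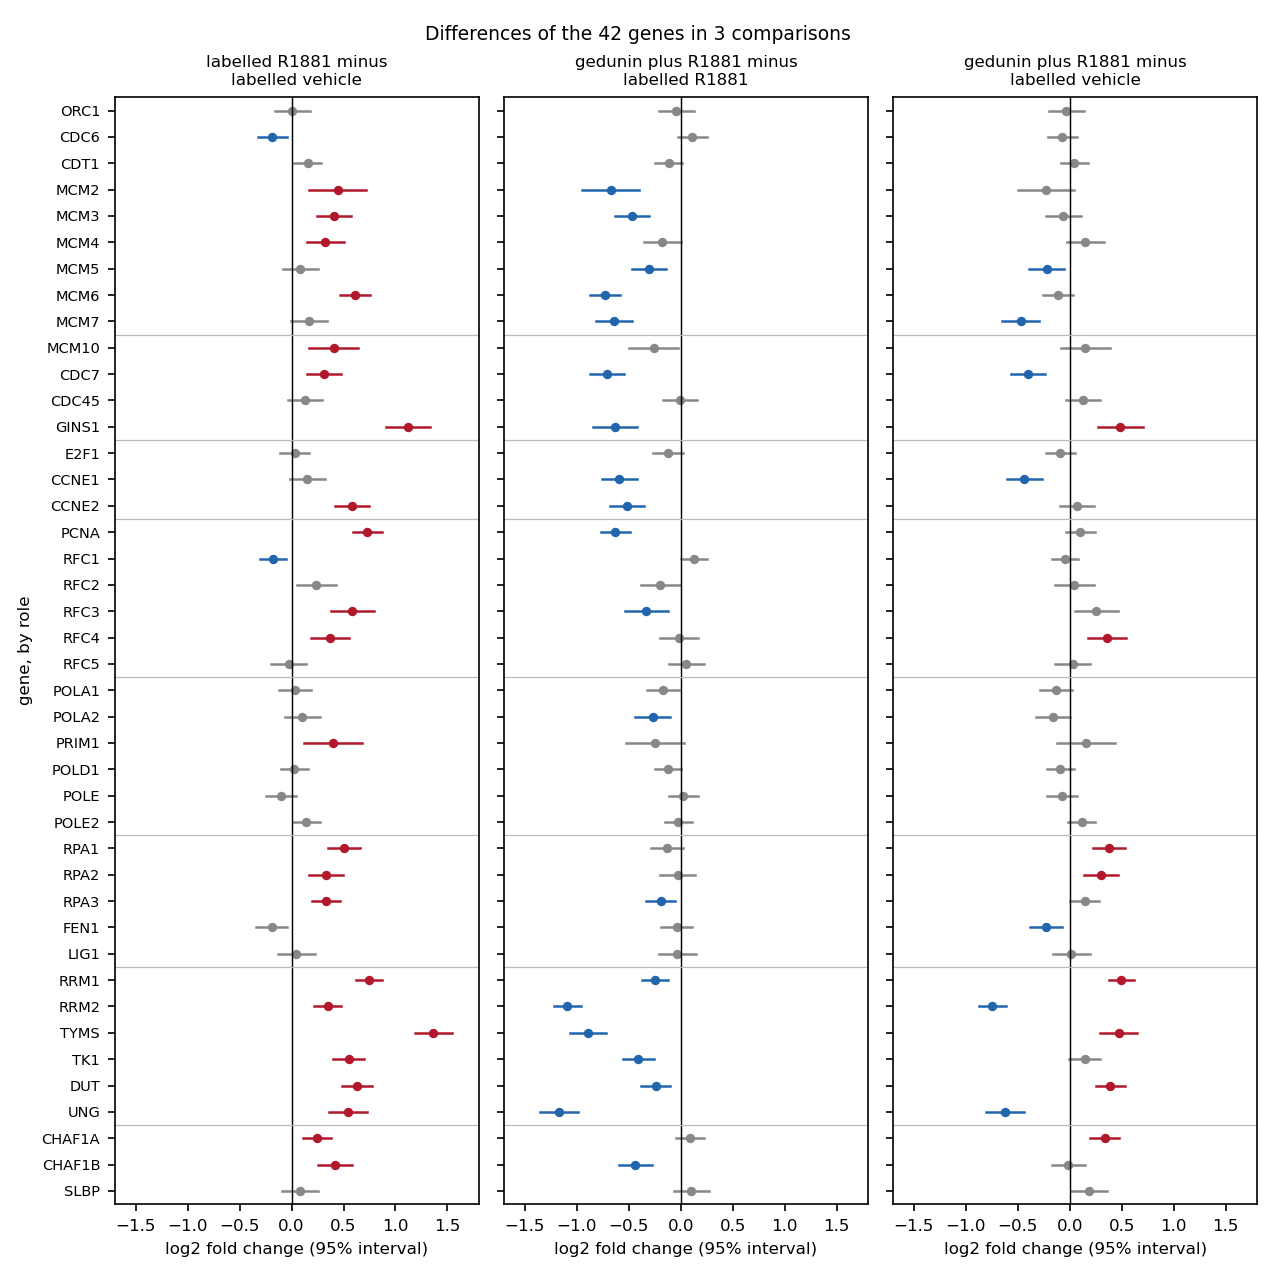
Log2 fold change of each of the 42 genes (rows, by role) in the 3 comparisons, with bars for the 95% confidence interval from limma coloured red (higher) or blue (lower) for genes called at an adjusted p under 0.05 and grey otherwise. The R1881 label against vehicle has 23 red points and 2 blue, gedunin against the R1881 label 0 and 20, and gedunin against vehicle 8 and 7.

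Probe sets of 1 gene mostly went together. Of the 65 probe sets, 36 were higher and 4 lower under R1881 than vehicle, tested over all probe sets without controls. With gedunin, 0 were higher and 29 lower against R1881, and 11 and 8 against vehicle. No share of all probe sets stands beside these counts, so they describe only how probe sets of these genes compare. No gene had probe sets called in opposite directions. Among the 17 genes with several probe sets, the calls of 5, 7 and 4 genes were unlike between their probe sets in the 3 comparisons, in that some passed the test and others did not. With gedunin against R1881, the second probe sets of RRM1, DUT and MCM5 were not called, at -0.20, -0.16 and -0.15 (limma, adjusted p = 0.195, 0.0783 and 0.102). The third of DUT (-0.31, 0.0478) and the second of RFC2 (-0.40, 0.00799) were called. Against vehicle, the third of DUT (0.09, 0.626) and the second of FEN1 (-0.23, 0.128) were not called. Between R1881 and vehicle, the third of RFC1 was not called (-0.07, 0.376). RRM2 had a second probe set, which read 142 ± 20.0 (SD, n = 3) under vehicle, 190 ± 17.7 under R1881 and 54.9 ± 1.33 with gedunin. Its log2 differences were 0.43, -1.79 and -1.36, against 0.35, -1.09 and -0.75 for the brighter one, so the direction was shared and the size was not. The dimmer probe set of TYMS stayed between group means of 28.5 and 30.3 and was not called in any comparison, with differences of -0.01, -0.08 and -0.09.

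RFC5, a small subunit of the clamp loader, was read differently by its 3 probe sets. Its brightest probe set averaged 221 ± 25.3 (SD, n = 3), 216 ± 11.2 and 224 ± 1.32 in the vehicle, R1881 and gedunin groups, with log2 differences of -0.03, 0.06 and 0.03 that were not called. The next averaged 54.6 ± 5.69, 88.7 ± 1.90 and 61.4 ± 7.10, and was called at 0.70 and -0.54 in the first and second comparisons (limma, adjusted p = 5.54e-05 and 0.000591). The last was called at 0.33 in the first (adjusted p = 0.00848). MCM4 had 4 probe sets, all called higher under R1881, by 0.33, 0.61, 0.27 and 0.28. With gedunin against R1881 they read -0.18, -0.40, -0.13 and -0.34, of which the second and the last were called.

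**Figure D4:**
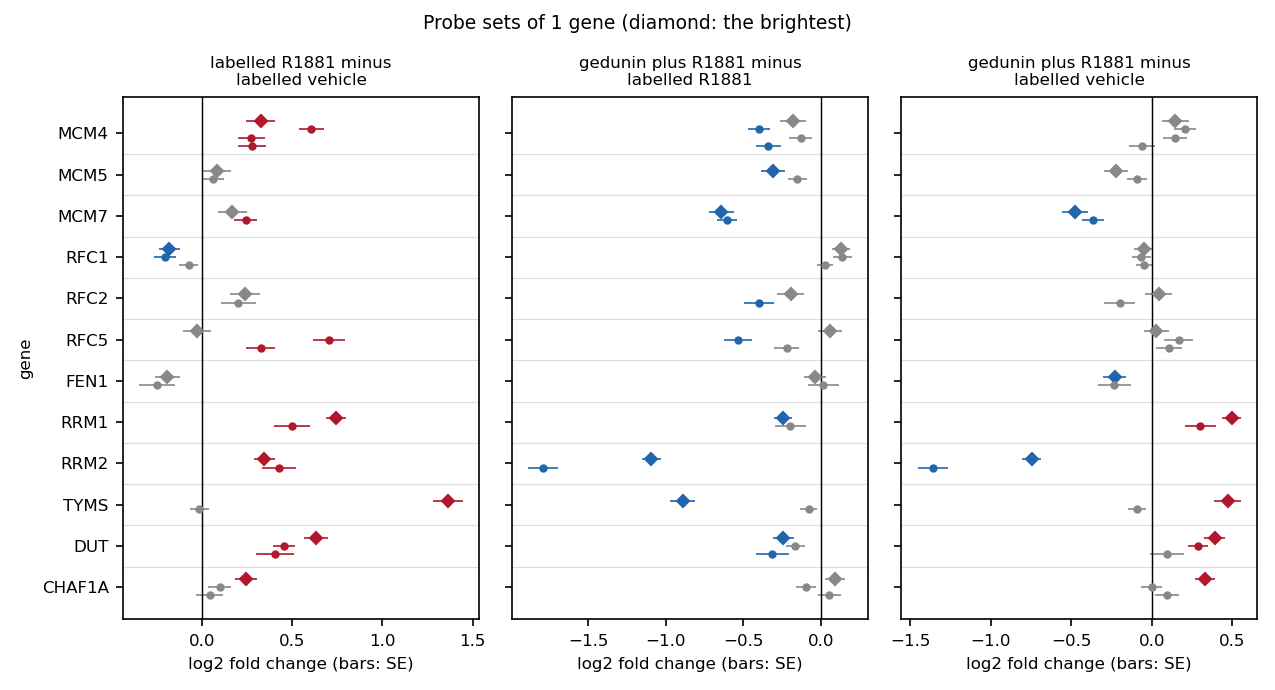
Log2 fold change with its SE for each probe set of RRM2 and of the genes whose probe sets differed in call, in the 3 comparisons, with the brightest probe set as a diamond and colours for called higher (red), called lower (blue) or not called (grey) in the fit over all probe sets. Both RRM2 probe sets lie below 0 with gedunin, at -1.09 and -1.79 against the R1881 label, while the RFC5 probe sets spread from -0.03 to 0.70 between R1881 and vehicle.

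Other genes of the same pathways were read from named lists, each by its brightest probe set only. Of 31 measured genes of the replisome and of licensing outside the 42, 12 were higher and 2 lower under R1881, 4 higher and 9 lower with gedunin against R1881, and 4 higher and 3 lower against vehicle. As shares, 38.7% were higher under R1881, beside 16.7% of all genes, and 29% lower with gedunin against R1881, beside 13.4%. The 6.45% lower under R1881 lay below the 13.6% of all genes. The 12.9% higher with gedunin in either comparison and the 9.68% lower against vehicle were near or below the 14.0%, 15.0% and 11.9% of all genes. The medians were 0.17, -0.07 and 0.04. GINS2, a partner of GINS1 in the same complex, measured 107 ± 11.0, 140 ± 8.03 and 82.3 ± 3.46 (SD, n = 3) in the vehicle, R1881 and gedunin groups, with changes of 0.40, -0.76 and -0.37 (limma, adjusted p = 0.00137, 5.5e-06 and 0.0026). TIPIN, a fork protection factor, and DNMT1, the maintenance DNA methyltransferase, rose by 0.73 and 0.58 under R1881, and were at -0.69 and -0.63 from R1881 to gedunin, ending at 0.04 and -0.05 from vehicle. GMNN, the geminin that holds CDT1 in check, fell by 0.67 from R1881 and -0.52 from vehicle. DBF4, the activator of CDC7, went against its kinase. It was 0.53 higher with gedunin than under R1881 and 0.74 higher than under vehicle (adjusted p = 0.00125 and 8.42e-05). The means of DBF4 in the vehicle, R1881 and gedunin groups were 25.1, 29.2 and 42, all in the dim range under 52.4. ORC5 and ORC3, subunits of the origin recognition complex, were -0.79 and 0.56 with gedunin against vehicle. Under R1881 ORC5 fell by 1.09 and ORC3 was at 0.18, which was not called (adjusted p = 0.0795). ASF1A, a histone chaperone, rose by 0.69 under R1881 and was 0.88 above vehicle with gedunin.

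Among 24 other genes of nucleotide synthesis, 7 rose and 5 fell under R1881. With gedunin, 12 were lower and 2 higher than under R1881, and 11 lower and 2 higher than under vehicle. The lower genes made up 50% and 45.8% of the list, beside 13.4% and 11.9% of all genes. The 8.33% higher with gedunin in either comparison lay below the 14.0% and 15.0% of all genes. Under R1881, 29.2% rose and 20.8% fell, beside 16.7% and 13.6% of all genes. The largest falls with gedunin from R1881 were in purine synthesis. PPAT, its committed step, changed by 0.29, -0.77 and -0.48 in the 3 comparisons (limma, adjusted p = 0.00418, 1.31e-06 and 0.000101), and PAICS, a later enzyme of it, by 0.33, -0.70 and -0.37. ATIC, which completes IMP, and IMPDH2, which opens the branch to guanine nucleotides, rose by 0.80 and 0.68 under R1881, and were at -0.68 and -0.62 from R1881 to gedunin. They ended at 0.12 and 0.06 from vehicle and were not called there. IMPDH1 took the opposite course, at -0.72 and 0.39, as did SHMT2, the mitochondrial serine hydroxymethyltransferase, at -0.47 and 0.74. ADSL, of purine synthesis, was -0.47 and -0.59 with gedunin against R1881 and vehicle. DHODH and CTPS1, of pyrimidine synthesis, were -0.49 and -0.38 with gedunin against vehicle. Both were also lower than vehicle under R1881, at -0.36 and -0.33 (limma, adjusted p = 0.00653 and 0.00548). Neither was called between gedunin and R1881, at -0.13 and -0.05 (adjusted p = 0.352 and 0.701).

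Of 27 genes of G1/S control, 10 rose and 3 fell under R1881, and 3 rose and 10 fell with gedunin against R1881. Against vehicle 4 were higher with gedunin and 7 were lower. As shares, 37% rose under R1881 and 37% fell with gedunin against R1881, beside 16.7% and 13.4% of all genes. With gedunin against vehicle 25.9% were lower, beside 11.9% of all genes. The 11.1% that fell under R1881 lay below the 13.6% of all genes. The 14.8% higher with gedunin against vehicle and 11.1% higher against R1881 were near or below the 15.0% and 14.0% of all genes. MYC averaged 467, 964 ± 38.7 and 318 ± 22.4 (SD, n = 3) in the vehicle, R1881 and gedunin groups, with the same value on the 3 vehicle arrays. It changed by 1.05, -1.60 and -0.55 (limma, adjusted p = 2.58e-08, 7.14e-10 and 1.48e-05). TFDP1, the dimerisation partner of E2F factors, had the same order, at 172 ± 5.70, 312 ± 13.0 and 133 ± 4.05, with changes of 0.86, -1.23 and -0.38. CCND1, cyclin D1, fell with gedunin, at -0.63 from R1881 and -0.46 from vehicle, while the CDK inhibitors CDKN1A and CDKN1B were 0.70 and 0.26 higher than under R1881 and 0.78 and 0.57 higher than under vehicle. CDK2, the kinase of cyclin E, was -0.45 under R1881 and -0.76 with gedunin against vehicle. SKP2, a ubiquitin ligase subunit, rose by 0.61 and fell by 0.43. CCNA2, cyclin A, was higher at each step, by 0.94 and 0.34.

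Genes of mitosis were set beside the S phase genes because both follow cell cycling. Of 43 measured, 37 were higher and 0 lower under R1881 than under vehicle, with a median of 0.81. Against the R1881 label, 25 were higher with gedunin and 4 lower, with a median of 0.33, where the 42 replication and nucleotide genes had 0 higher and 20 lower and a median of -0.22. Against vehicle, 37 were higher with gedunin and 0 lower, with a median of 1.17, beside 0.04 for the 42. As shares, 86% of the mitosis genes were higher under R1881, beside 16.7% of all genes, and 86% with gedunin against vehicle, beside 15.0%. Against R1881, 58.1% were higher with gedunin and 9.3% lower, beside 14.0% and 13.4% of all genes. CKS2, a CDK subunit, and HMMR, a spindle-associated protein, measured 364 ± 10.5 and 102 ± 5.62 (SD, n = 3) under vehicle, 823 ± 0.898 and 244 ± 24.7 under R1881, and 1854 ± 55.2 and 535 ± 17.8 with gedunin. Both rose at each step, CKS2 by 1.18 and 1.17 and HMMR by 1.25 and 1.13. CDK1, the mitotic kinase, was an exception, with 1.22 and -1.10 and a value of 0.12 from vehicle that was not called (limma, adjusted p = 0.348). No test compared the lists with each other.

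**Figure D5:**
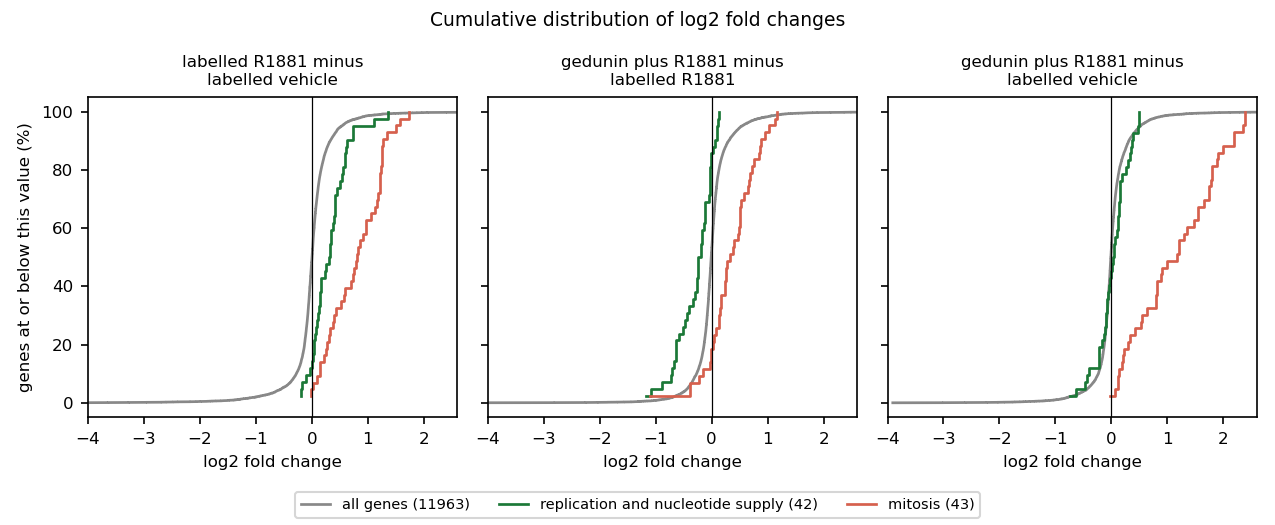
Share of genes (percent, vertical axis) at or below each log2 fold change (horizontal axis) for all 11963 genes, the 42 replication and nucleotide supply genes and 43 mitosis genes, in the 3 comparisons. Gedunin against the R1881 label places the 42 genes left of all genes (median -0.22) and the mitosis genes right of them (median 0.33).

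Promoter letters were compared between the same groups as a description. RefSeq windows from 250 bases before to 50 after the start were at hand for 37 of the 42 genes, not for MCM4, MCM5, CCNE2, RPA2 and RPA3. An E2F-type motif (TTTCCCGC, TTTGGCGC, TTTGCCGC or TTTCGCGC, either strand) was present in 38% of the 50 windows of these genes, in 8.7% of the 46 windows of mitosis genes and in 3.31% of all 35116 windows. CCAAT, on either strand, was present in 54% of the replication and nucleotide windows, 78.3% of the mitosis windows and 34.6% of all windows. The letters TTTGAA or TTTAAA, the core of the CHR element of mitotic promoters, were present in 16%, 80.4% and 24% of them. Within the 37 genes, 19 had an E2F-type match in some window and 18 had none. Among the 19 with a match, 10 rose and 1 fell under R1881, and 12 fell with gedunin against R1881, with medians of 0.31 and -0.33. Among the 18 without, 9 rose and 1 fell, and 5 fell with gedunin, with medians of 0.24 and -0.13. Against vehicle the medians were -0.08 and 0.08. A match is a description of letters and does not show binding, and the split was not tested.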

How the data were processed

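Gene expression was measured on 9 Affymetrix arrays with 22277 probe sets, 3 per group. The deposited values are intensity on a linear scale, which the authors made with RMA (background correction, quantile normalisation and probe summary), per the submitters' processing notes. Its software and version: not given in the sources used here. Quantile normalisation gives every array nearly the same distribution, so a change in total RNA is not visible. The values were log2 transformed, and 62 control probe sets were left out. Probe sets were named through the platform annotation, and 19064 had 1 gene symbol, 1043 several and 2108 none. Those with several or no symbol were not used for genes. The brightest probe set over the 9 arrays stood for each of the 11963 genes. limma 3.58.1 in R 4.3.3 was fitted to all 3 groups at once (lmFit, contrasts, eBayes), with p-values adjusted over all genes by the Benjamini-Hochberg method, and a gene was called at an adjusted p under 0.05. The number of arrays limits the precision. The labels call the replicates biological but do not say whether they came from separate cultures, so p-values measure the spread between these samples. Replicate numbers are shared between groups. Residuals of arrays with the same number had correlations between -0.107 and 0.133, and 3 of 9 arrays correlated best with their own number, so the numbers were not taken to pair the samples and the block is an alternative. The fit was tested on simulated data. Named outside the 42 genes were up to 4 called genes with the largest absolute change per list and comparison, plus genes that check the labels. The members and all lists were chosen with earlier results of these data known. Listed genes without a single-symbol probe set are not analysed here. Alternatives covered the probe set per gene, a minimum intensity, an offset before the log, scaling, fold minimum, variance model, comparison-only fits, the replicate block and each array left out. Promoter sequences came from RefSeq (GRCh38.p14).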

Additional observations from a re-analysis of the deposited data

How the results depend on the processing

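The numbers of genes called stayed within 1.5 times of 25, 20 and 15 under every alternative run, at 22 to 28 for R1881 against vehicle by label, 17 to 24 for gedunin against R1881 and 13 to 17 for gedunin against vehicle. Of the called genes, 20 of 25, 15 of 20 and 12 of 15 kept their call in every alternative that tested them; the minimum intensity left 10 dim genes untested, CCNE2, CHAF1B and MCM10 among the called. The median of the 42 genes between R1881 and vehicle was 0.24 with 16 added to the intensity before the log (0.32 without), and with 1 array left out it ran from 0.25 to 0.32. The median between gedunin and vehicle ran from -0.001 to 0.055 with 1 array left out. RFC5 turned sign with the probe set. It was at 0.33 (R1881 against vehicle) and -0.23 (gedunin against R1881) as the mean of its probe sets, and at 0.70 and -0.54 with the most variable probe set. With the replicate block, 24, 20 and 15 genes were called. CDC6 (adjusted p = 0.0556) and RFC1 (0.0549) were lost between R1881 and vehicle and MCM5 (0.0684) between gedunin and vehicle, and RFC2 (0.0353) and RFC3 (0.0438) were gained there, respectively. A minimum change of 1.2-fold ended the calls of CDC6, RFC1 and CHAF1A (R1881 against vehicle), RPA3, RRM1 and DUT (gedunin against R1881) and MCM5 and FEN1 (gedunin against vehicle). The most variable probe set added CDC6, MCM4 and RFC2 (0.30, -0.40 and -0.40, adjusted p = 0.0446, 0.000838 and 0.00665) between gedunin and R1881, and ended MCM5 (0.0538) and FEN1 (0.114) against vehicle. CHAF1A was also not called as the mean of its probe sets (adjusted p = 0.082 under R1881 and 0.0579 with gedunin). The 10 genes with means under 52.4 are limited by signal over background.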

Other observations

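In 7 cases, 2 of the 3 arrays of a group held the same deposited value for 1 of the 42 genes, as for UNG on vehicle replicates 1 and 2 (56.5). In no group did all 3 arrays share a value for a gene of the 42.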
